A study of Mus musculus with 23 samples.

Results

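The comparison described here sets mouse colon taken on day 4 of dextran sulfate sodium (DSS) against colon taken on day 2, across all genes measured. Its arrays were chosen by their titles: 6 mice at day 2 and 6 at day 4, which are 12 of the 23 arrays of the series. The other 11 arrays are 5 from before treatment (day 0) and 6 from day 6. All groups were C57BL/6J mice of 12 to 14 weeks, and the mice of days 2, 4 and 6 had 3% DSS in their drinking water. Each day had animals of its own and each array one animal, so no mouse was followed from day 2 to day 4. Total RNA of the colon was hybridised to Affymetrix Mouse Genome arrays. The sex of the mice, the piece of colon, the hour of collection and the hybridisation batch have no label here. The samples used here hold no untreated mice of days 2 and 4, so time since the start and exposure to DSS cannot be told apart.

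DSS is a sulfated polysaccharide that damages the epithelium of the colon and is widely used to produce acute colitis in mice. The healthy lining is made mostly of absorptive colonocytes, which take up water, salt and short-chain fatty acids, and of goblet cells, which secrete the mucus layer. Beneath it lie the lamina propria, with fibroblasts, vessels and resident immune cells, and the muscle layers, with the ganglia of enteric neurons and glia. Whole colon contains all of these. A change in a marker can therefore come from fewer cells of a type or from less RNA in each, and these cannot be told apart in such samples. The comparison asks which of these components moved between the second and the fourth day.

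Values are the authors' signal intensities, and changes are given as log2(signal + 16), day 4 minus day 2, ± standard error, from limma with 12463 genes tested and 6 arrays a day. A gene is said to have risen or fallen where its Benjamini-Hochberg adjusted p over all genes was 0.05 or less. Where leaving out 1 array ended a call, the highest adjusted p so obtained is given with that array. Markers of the labelled tissue were present: 27 of 29 entries for absorptive colonocytes and 25 of 26 for goblet cells were measured. Of the entries for red blood cells 0 were measured, of those for T and NK cells 6 of 20, and of those for mast cells and eosinophils 3 of 13.

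Several arrays stood apart. Day 2 mouse 6 carried pancreatic RNA: the enzyme gene Prss2 had a signal of 28005 there and 61.6 to 335 on the other 11 arrays. Day 2 mouse 8 and day 4 mouse 8 had little RNA of squamous epithelium and skeletal muscle, which lie next to the distal colon. The squamous keratin gene Krt10 was at 306 and 350 on these arrays, against 3301 to 7102 on the other day 2 arrays and 7014 to 12592 on the other day 4 arrays. The median change over 22 squamous genes was 0.54 and over 18 skeletal muscle genes 0.62, with 0 of either list having risen. Both depended on which array of mouse 8 was left out: without its day 2 array the medians were -0.08 and -0.04, and without its day 4 array 1.27 and 1.35, with 4 squamous genes risen in the latter case. On the arrays of the other mice the squamous list was at 0.20 to 1.12 at day 2 and 1.11 to 1.48 at day 4, relative to the day 2 mean. The skeletal muscle list was there at -0.43 to 1.96 at day 2 and 0.67 to 2.16 at day 4. Of 8 pancreatic genes 1 fell, Zg16, which goblet cells also make (-0.27 ± 0.08; adjusted p = 0.0707 without day 2 mouse 17). Krt10, Prss2 and the clock genes Dbp, Ciart, Per3, Nr1d2, Arntl and Npas2 below were chosen after their values were seen.

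Day 4 arrays also differed among themselves. The clock gene Dbp, a transcription factor whose transcript cycles over the day, had signals of 1368, 890 and 1368 on day 4 mice 1, 3 and 4, and 3384, 2454 and 3316 on day 4 mice 6, 7 and 8. Day 2 arrays lay between 2112 and 3437. Ciart, a clock repressor, gave the same division, with 141, 169 and 77.8 on day 4 mice 1, 3 and 4, 387, 315 and 361 on day 4 mice 6, 7 and 8, and 317 to 418 at day 2. Many of the gene groups described here also moved further on day 4 mice 1, 3 and 4 than on the others. The median of 26 endothelial genes, relative to the day 2 mean, was 0.58, 0.60 and 0.74 on these and 0.18, 0.19 and 0.18 on mice 6, 7 and 8. For 27 colonocyte genes the medians were -0.35, -0.48 and -0.95 on the former and -0.16, 0.02 and -0.20 on the latter. Whether an hour of collection, a batch or the response of the mice divides the arrays was not tested.

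**Figure D1:**
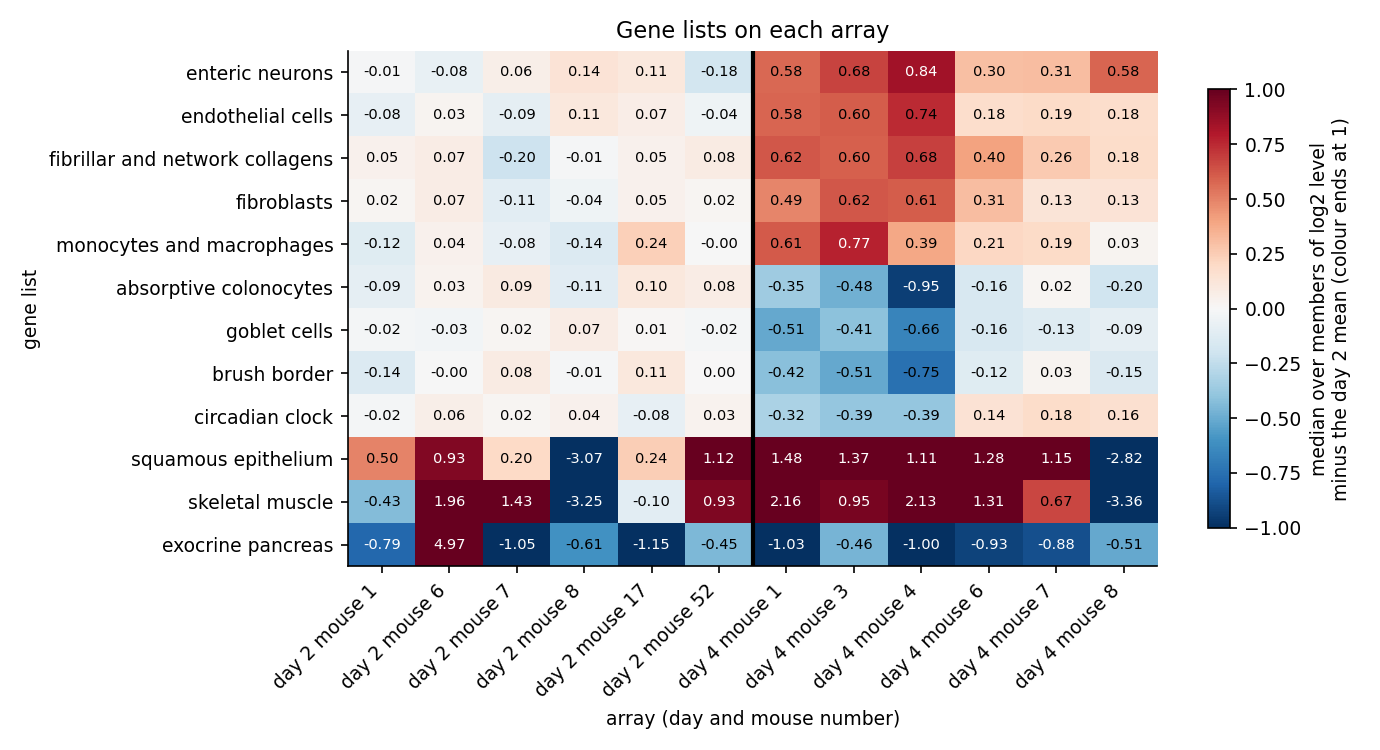
Median over the members of 12 gene lists of the log2 level minus the day 2 mean, on each of the 12 arrays (columns, by day and mouse number, with a line between the days); red is higher, blue is lower and the number is printed in each cell. Endothelial, neural and collagen genes are above 0 on all day 4 arrays and highest on mice 1, 3 or 4, colonocyte genes are lowest on day 4 mouse 4 at -0.95, and the squamous and muscle lists are far below 0 on mouse 8 of both days.

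RNA quality measures moved with the day, as mean ± SD of 6 arrays. Control probe sets at the 3′ and 5′ ends of Actb had a log2 ratio of 0.46 ± 0.06 on day 2 and 0.61 ± 0.06 on day 4 (two-sided exact permutation p = 0.00433, adjusted p = 0.00577 over 4 measures). For Gapdh the ratio was -0.34 ± 0.03 and -0.21 ± 0.03 (exact p = 0.00216, adjusted p = 0.00432). The bacterial and phage hybridisation controls were at 11.35 ± 0.11 and 11.02 ± 0.12 on the log2 scale (exact p = 0.00216, adjusted p = 0.00432), with no overlap between the days. A control for 18S rRNA was at 6.56 ± 0.28 and 7.09 ± 0.54 (exact p = 0.0563). A batch that followed the day cannot be told apart from the day.

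Between day 2 and day 4, 1176 genes rose (9.44% of those tested) and 510 fell (4.09%). The changes were small: the median was 0.43 among genes that rose and -0.36 among those that fell, against 0.06 over all genes tested. A change of at least 2-fold was reached by 24 genes that rose (0.193%) and 15 that fell (0.12%). In 467 genes that rose (3.75%) every day 4 array lay above every day 2 array, and in 113 genes that fell (0.907%) every day 4 array lay below. Without regard to the test, 524 genes (4.20%) lay wholly above and 135 (1.08%) wholly below. The latter count was 250, 216 and 208 with mouse 6, 8 or 52 of day 2 left out, and 241 and 237 with mouse 7 or 8 of day 4 left out. Leaving out an array can only keep or raise such a count, so these values are no test of its stability. An unadjusted p below 0.05 was reached by 3693 genes (29.6%).

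The counts depended on few arrays and on the quality measures. Leaving out mouse 4 of day 4 gave 526 and 188, mouse 1 of that day 702 and 230, and its mouse 3 676 and 236. Leaving out mouse 17 of day 2 gave 749 and 235, and mouse 7 of day 2 gave 795 and 301. Without day 4 mice 1, 3 and 4, which leaves 3 arrays at day 4, 0 genes rose and 1 fell. The same 1176 and 510 genes then had medians of 0.33 and -0.24. All of them kept their direction, while over all genes tested 61.1% of changes were above 0 and 38.9% below. They had been chosen on these same arrays among others, so the kept direction is a description and no test. Without day 2 mouse 6 and both arrays of mouse 8, 801 rose and 414 fell. Both of these alternatives were added after the data were seen. With the hybridisation controls as a covariate 41 rose and 12 fell, and with the Actb ratio 8 and 21; the medians of the same genes were 0.40 and -0.35, and 0.37 and -0.33. With the squamous and skeletal muscle levels as covariates 1034 rose and 426 fell. The count that fell was also 939, against 918 that rose, when the most variable probe set stood for each gene. Of the 1176 and 510 genes, 960 (81.6%) and 483 (94.7%) then kept their direction. With the mean of probe sets 1087 (92.4%) and 502 (98.4%) of them did.

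**Figure D2:**
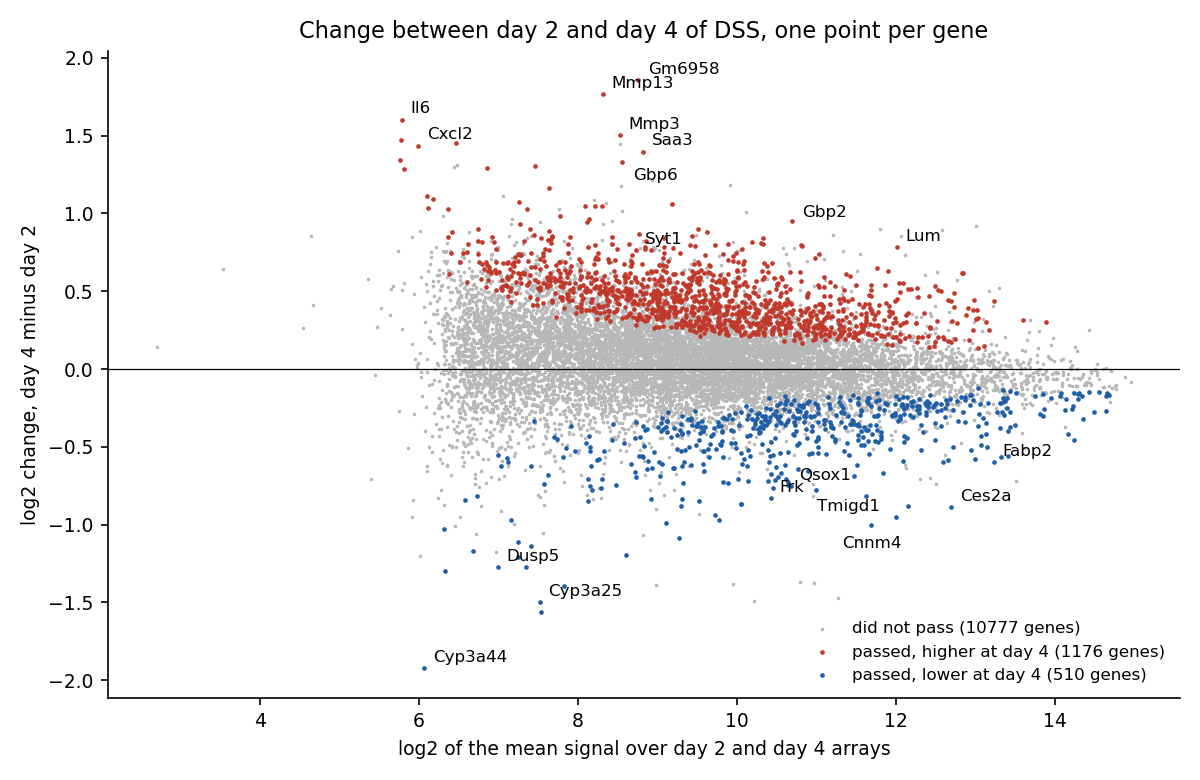
Each point is a gene: the x axis is the log2 of its mean signal over the 12 arrays, the y axis the log2 change from day 2 to day 4; red points rose (1176 genes), blue points fell (510 genes) and grey points did not pass. The cloud of changes narrows towards bright genes, genes that rose such as Il6 (1.60) and Mmp13 (1.77) are dim, and several bright genes such as Fabp2 (-0.60) fell.

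The largest increases without overlap between the days included genes of inflammation and of the interferon response. Il6, a cytokine that drives the acute phase response, had signals of 1.3 to 28.7 at day 2 (median 19.4) and 35.6 to 142 at day 4 (median 79.7) (log2 change 1.60 ± 0.30, adjusted p = 0.004). Mmp3, the matrix protease stromelysin-1, went from between 137 and 241 at day 2 (median 175) to between 247 and 825 at day 4 (median 589) (log2 change 1.50 ± 0.26, adjusted p = 0.00198). Saa3, an acute phase protein made locally in inflamed tissue, had 181 to 325 at day 2 (median 220.4) and 361 to 1320.5 at day 4 (median 580.3) (log2 change 1.40 ± 0.37, adjusted p = 0.0168). In each of these genes the lowest day 4 array lay above the highest day 2 array, and leaving out any 1 array kept the call. Il6 was a dim gene, near the lower end of what the arrays measured, and its lowest value of 1.3 was on day 2 mouse 52.

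The other large increases without overlap were AB124611 (1.34), Gbp6 (1.33), Upk3b (1.29) and Gpm6a (1.07), Itm2a (1.06), a membrane protein, Afap1l2 (1.05), an adaptor protein of signalling kinases, Edil3 (1.05), an integrin-binding matrix protein, Gbp3 (1.05), Nmu (0.96), which encodes the neuropeptide neuromedin U, Gbp2 (0.95), C1qtnf1 (0.94), a secreted C1q-like protein, and Sphkap (0.90), an anchoring protein for protein kinase A. Upk3b and Gpm6a are on the list used for mesothelium, the serosal cover of the gut, but the cells behind their rise were not identified. Gpm6a, for example, had 33.9 to 139.9 at day 2 (median 97.3) and 147 to 273 at day 4 (median 214). Leaving out 1 array could end 3 of these calls: Upk3b (adjusted p = 0.0608 without day 4 mouse 4, the highest of 5 such arrays), Nmu (0.0896 without day 2 mouse 6, of 7) and Gbp2 (0.0659 without day 4 mouse 3, of 2). A larger change in a gene whose arrays overlapped was that of Gm6958 (log2 change 1.86 ± 0.51, adjusted p = 0.0204; 0.0554 without day 4 mouse 4, the higher of 2 such arrays).

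**Figure D3:**
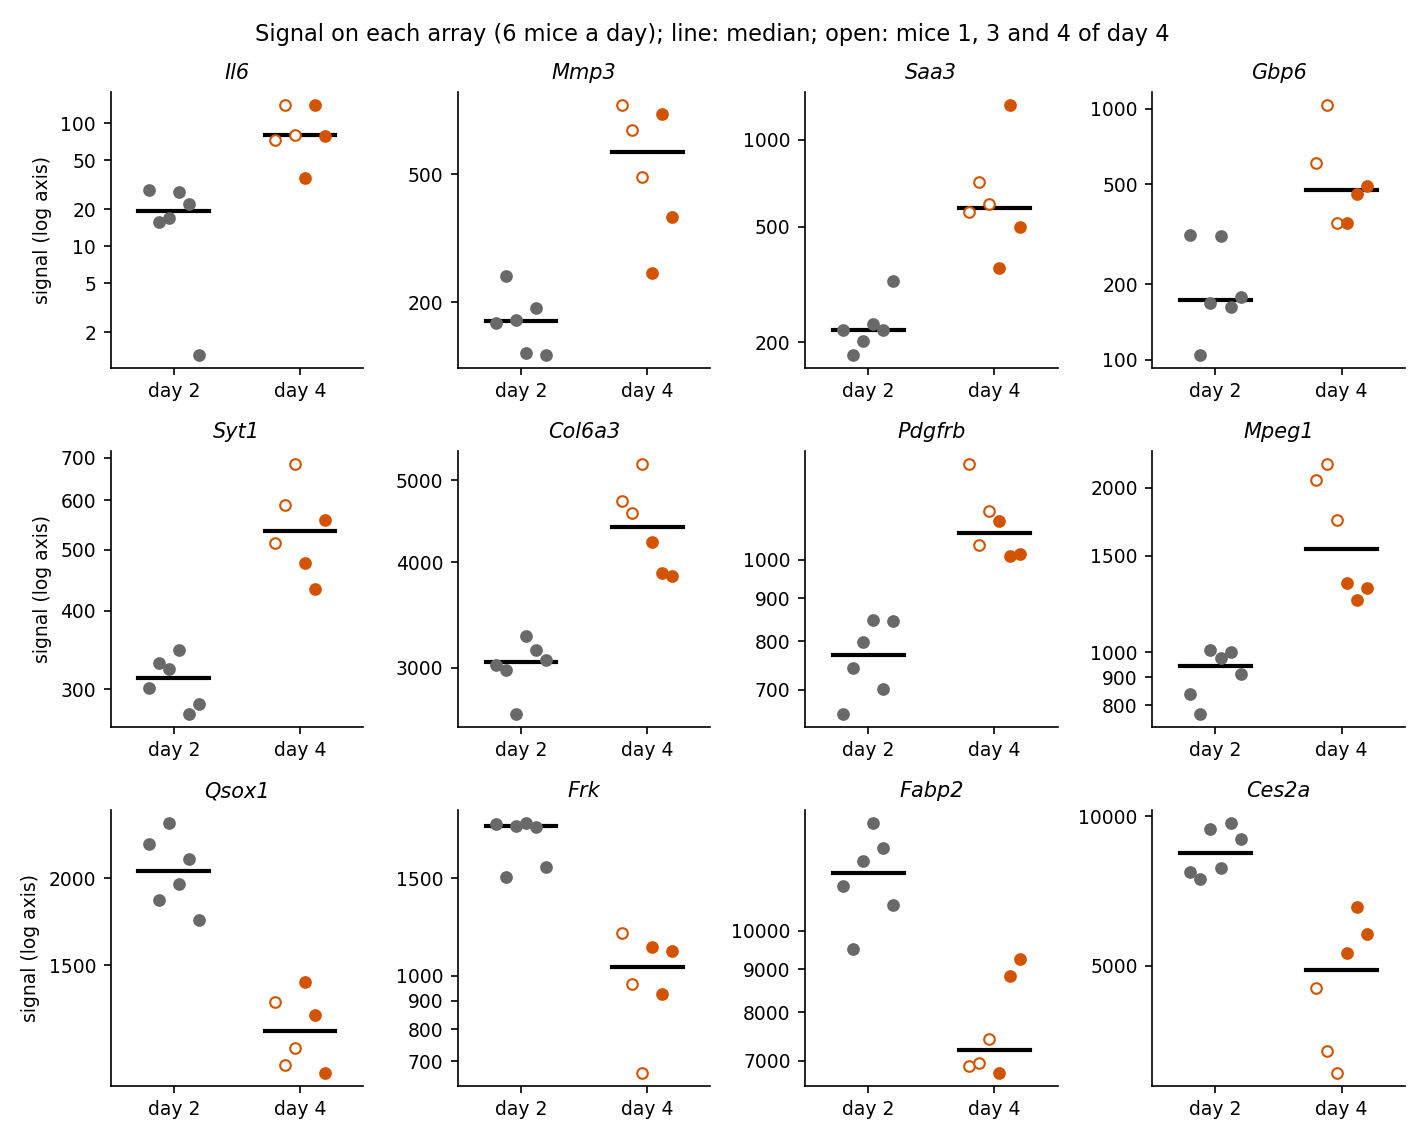
Signal of 12 genes on each array at day 2 (grey) and day 4 (orange), 6 mice a day, on a log axis whose range differs between panels; horizontal lines are medians and open circles are mice 1, 3 and 4 of day 4. The 12 genes were picked from those whose days do not overlap, which are 4.20% of all genes tested higher at day 4 and 1.08% lower. Il6, Mmp3, Saa3, Gbp6, Syt1, Col6a3, Pdgfrb and Mpeg1 are higher at day 4, and Qsox1, Frk, Fabp2 and Ces2a are lower.

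The 4 guanylate-binding proteins on the list of interferon-stimulated genes rose. These are GTPases induced by interferon that act against intracellular microbes. Gbp6 had 104 to 313 at day 2 (median 173) and 349 to 1039.5 at day 4 (median 475) (log2 change 1.33 ± 0.32, adjusted p = 0.0116), Gbp3 had 128 to 300.4 at day 2 (median 182) and 355 to 531 at day 4 (median 380.4) (log2 change 1.05 ± 0.28, adjusted p = 0.0184), and Gbp2 had 842 to 1481 at day 2 (median 1096) and 1499.9 to 3326 at day 4 (median 2137) (log2 change 0.95 ± 0.27, adjusted p = 0.0252). Gbp7 had 449 to 805 at day 2 (median 607) and 857 to 1477 at day 4 (median 1022) (log2 change 0.80 ± 0.22, adjusted p = 0.0229; 0.0599 without day 4 mouse 3, the higher of 2 such arrays). The 4 genes showed no overlap between the days. They were the members that rose among 31 measured interferon-stimulated genes (12.9%, against 9.44% of all genes tested), while 2 fell: Oasl1 (-0.75 ± 0.22) and Irf7 (-0.72 ± 0.20), a transcription factor of the interferon response, the latter named after its value was seen. Oasl1, which limits the translation of Irf7, had 398 to 545 at day 2 (median 433) and 149 to 352 at day 4 (median 276). The calls of Oasl1 and Irf7 ended without single arrays, with adjusted p = 0.0828 without day 4 mouse 4 and 0.0608 without day 4 mouse 4 at most. The list's median was 0.19, and 2 rose without day 2 mouse 7 or day 4 mouse 3.

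The start sites of Gbp2, Gbp3 and Gbp7 are neighbours on chromosome 3, and their promoters are shown because these genes rose and each has a stretch that holds a sequence of the kind bound by interferon-activated factors. The stretches are the 250 bases before the start site, from RefSeq on GRCm38.p6, on the plus strand, for Gbp2 at chr3:142620413-142620662, Gbp3 at chr3:142559794-142560043 and Gbp7 at chr3:142530086-142530335. Capitals mark matches to GAAA, any 2 bases and GAAA again, read on either strand, which begin 59 bases before the start site in Gbp2, 45 and 39 (overlapping each other) in Gbp3 and 53 in Gbp7. Gbp3 has 2 such stretches in the table, of which the 1 shown holds a match and the other does not.
Gbp2: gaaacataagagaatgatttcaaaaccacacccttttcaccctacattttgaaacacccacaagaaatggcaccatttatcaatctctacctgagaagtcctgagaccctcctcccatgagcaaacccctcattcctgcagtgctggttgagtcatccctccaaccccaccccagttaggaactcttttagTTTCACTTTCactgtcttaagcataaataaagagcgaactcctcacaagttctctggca
Gbp3: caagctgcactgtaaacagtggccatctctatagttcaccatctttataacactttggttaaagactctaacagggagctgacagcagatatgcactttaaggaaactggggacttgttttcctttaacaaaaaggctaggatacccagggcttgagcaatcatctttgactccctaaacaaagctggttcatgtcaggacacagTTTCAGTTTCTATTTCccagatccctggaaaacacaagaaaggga
Gbp7: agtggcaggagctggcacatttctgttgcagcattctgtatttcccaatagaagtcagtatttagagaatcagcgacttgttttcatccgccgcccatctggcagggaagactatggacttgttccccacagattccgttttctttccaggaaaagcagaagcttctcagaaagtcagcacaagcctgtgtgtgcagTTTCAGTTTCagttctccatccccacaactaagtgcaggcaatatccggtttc
Of all 12859 such stretches of the genes tested 2.60% held this motif, of those of genes that rose 3.31%, of those of genes that fell 1.67%, and of those of the measured interferon-stimulated genes 48.1%. Promoter stretches were found for 10024 of the 12463 genes tested, and Gbp6 had none. The stretches of Oasl1 and Irf7 held no match. A match is a description of letters and not evidence of binding.

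Matrix proteases included some of the steepest increases. Mmp13, a collagenase, had 75.4 to 165 at day 2 (median 114) and 128 to 1026 at day 4 (median 459) (log2 change 1.77 ± 0.37, adjusted p = 0.00612), and its lowest day 4 array lay below the highest day 2 array. Mmp10, or stromelysin-2, had 70.3 to 156 at day 2 (median 107) and 108 to 577 at day 4 (median 254) (log2 change 1.16 ± 0.34, adjusted p = 0.0267; 0.0653 without day 4 mouse 4, the highest of 4 such arrays). Mmp23 (0.58 ± 0.14) and the gelatinase Mmp2 (0.53 ± 0.16; 0.0854 without day 4 mouse 4, the highest of 7 such arrays), the latter named after its value was seen, moved less. With Mmp3 these were 5 of 23 measured members that rose (21.7%, against 9.44% of all genes tested), and 0 fell. The list's median was 0.37, and 3 rose without day 4 mouse 3 or day 4 mouse 4.

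Mmp3, Mmp10 and Mmp13 lie in the cluster of matrix metalloproteinase genes on chromosome 9. Their promoters are shown because each holds TGACTCA, the letters of an AP-1 site, the element of Fos and Jun factors, on one strand or the other. The 250 bases before the start site are from RefSeq on GRCm38.p6, plus strand, at chr9:7445572-7445821 for Mmp3, chr9:7502092-7502341 for Mmp10 and chr9:7272264-7272513 for Mmp13. Capitals mark the match, which begins 46, 63 and 35 bases before the start site.
Mmp3: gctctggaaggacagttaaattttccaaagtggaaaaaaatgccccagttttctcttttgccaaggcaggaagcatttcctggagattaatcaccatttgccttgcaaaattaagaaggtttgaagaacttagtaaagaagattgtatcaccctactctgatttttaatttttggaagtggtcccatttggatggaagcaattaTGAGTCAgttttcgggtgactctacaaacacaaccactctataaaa
Mmp10: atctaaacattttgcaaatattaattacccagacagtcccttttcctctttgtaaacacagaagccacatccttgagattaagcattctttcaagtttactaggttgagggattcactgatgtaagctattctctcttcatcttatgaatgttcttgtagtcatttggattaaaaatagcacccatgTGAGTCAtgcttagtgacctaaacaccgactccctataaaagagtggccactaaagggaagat
Mmp13: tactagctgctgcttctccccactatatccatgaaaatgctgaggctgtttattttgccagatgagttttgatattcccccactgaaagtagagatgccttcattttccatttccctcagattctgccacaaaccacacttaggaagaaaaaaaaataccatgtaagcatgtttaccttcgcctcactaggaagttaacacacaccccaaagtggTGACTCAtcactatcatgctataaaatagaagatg
This motif was in 3.63% of all such stretches, 3.98% of those of genes that rose, 6.11% of those of genes that fell and 31.8% of those of the measured protease list. Mmp23 had no match in its 2 stretches. Jun and Junb, which encode AP-1 factors, fell in the same step (below).

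Cytokines and chemokines passed in both directions. Of 16 measured cytokines 11 changes were above 0 and 2 rose, Il6 and Il33, an alarm cytokine stored in nuclei, which had 225 to 372 at day 2 (median 281) and 357 to 783 at day 4 (median 436) (log2 change 0.68 ± 0.19, adjusted p = 0.0246). The interleukin-1 receptor antagonist gene Il1rn fell (log2 change -0.42 ± 0.14, adjusted p = 0.0485), after 1294 to 2244 at day 2 (median 2089.7) and 1049 to 1772 at day 4 (median 1441). The call of Il33 ended without any of 4 single arrays (adjusted p = 0.0658 without day 4 mouse 1 at most) and that of Il1rn without any of 10 (0.14 without day 4 mouse 4 at most). The list's median was 0.20, with 12.5% of its members risen and 6.25% fallen, against 9.44% and 4.09% of all genes tested.

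Among 25 chemokines 18 changes were above 0, 4 rose (16%, against 9.44% of all genes tested) and 3 fell (12%, against 4.09%). The list lay above every day 2 array on 5 of the 6 day 4 arrays (-0.16 to 0.15 at day 2 and -0.04 to 0.40 at day 4). The neutrophil-attracting Cxcl2 had 7.66 to 50.6 at day 2 (median 21.5) and 50.2 to 218 at day 4 (median 76) (log2 change 1.44 ± 0.32, adjusted p = 0.00728). Cxcl9, which attracts T cells and is induced by interferon-gamma, had 40.4 to 179 at day 2 (median 71.5) and 100.3 to 550.04 at day 4 (median 206) (log2 change 1.30 ± 0.42, adjusted p = 0.0423). Both overlapped between the days. Ccl8, a monocyte chemokine, did not overlap, with 604 to 852 at day 2 (median 761) and 903 to 1771 at day 4 (median 1246) (0.74 ± 0.21), and Cxcl12, made by stromal cells, changed by 0.51 ± 0.16. The 3 that fell, named after their values were seen, were Ccl9 (-0.48 ± 0.16), Cx3cl1 (-0.37 ± 0.11), made by epithelium and endothelium, and Ccl6 (-0.34 ± 0.08). Leaving out 1 array kept the calls of Cxcl2 and Ccl6 but could end those of Cxcl9 (adjusted p = 0.114 without day 4 mouse 3), Ccl8 (0.0621 without day 4 mouse 3), Cxcl12 (0.101 without day 4 mouse 3), Ccl9 (0.128 without day 4 mouse 4) and Cx3cl1 (0.0854 without day 4 mouse 4). The count that rose was 1 without day 4 mouse 1 or 3.

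Acute phase and antimicrobial genes had a median of 0.38 with 3 of 20 risen (15%, against 9.44% of all genes tested): Saa3, the phospholipase gene Pla2g2a, with 84.3 to 149 at day 2 (median 128) and 173 to 457 at day 4 (median 199) (0.84 ± 0.23), and Lyz1, a lysozyme (0.44 ± 0.14). These are RNA signals, and enzyme activity was not measured. Pla2g2a, whose days did not overlap, gave an adjusted p of 0.0529 without day 4 mouse 1, and Lyz1 one of 0.0858 without day 4 mouse 3. Of 14 complement genes 3 rose (21.4%, against the same 9.44%): C1ra (0.67 ± 0.19) and C1s1 (0.53 ± 0.17), proteases of the classical pathway, and their inhibitor Serping1 (0.47 ± 0.15). C1ra had 487 to 730.03 at day 2 (median 613) and 782 to 1188 at day 4 (median 992). Each of the 3 complement calls ended without single arrays (adjusted p = 0.0648 without day 4 mouse 4 for C1ra, 0.109 without day 4 mouse 4 for C1s1 and 0.109 without day 4 mouse 4 for Serping1), and 0 remained without day 2 mouse 7, for example. Of 10 genes of antigen presentation by MHC class II 0 passed (median 0.32); without day 4 mouse 7, 3 rose (median 0.45), without day 4 mouse 6, 1 rose, and without day 4 mouse 4 or day 2 mouse 6 the median was 0.16 or 0.19. Ptger2, a prostaglandin E2 receptor, rose without overlap from between 218 and 248 at day 2 (median 227) to between 298 and 418 at day 4 (median 365) (log2 change 0.62 ± 0.13, adjusted p = 0.00672). It was the one member of 16 prostanoid genes to pass (6.25%, against 9.44% of all genes tested).

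Macrophage markers rose in part, while no call was made among neutrophil markers. Of 25 measured markers of monocytes and macrophages 7 rose (28%, against 9.44% of all genes tested) and 0 fell, with a median of 0.37. Mpeg1, which encodes perforin-2, went without overlap from between 771 and 1010.4 at day 2 (median 945) to between 1246 and 2213 at day 4 (median 1541) (log2 change 0.81 ± 0.17, adjusted p = 0.00604). Aif1 (0.86 ± 0.20), Lst1 (0.90 ± 0.22) and Ly86 (0.62 ± 0.18; 0.0721 without day 4 mouse 1, the highest of 5 such arrays) are leukocyte genes that also rose. The list's level relative to the day 2 mean was -0.14 to 0.24 at day 2 and 0.03 to 0.77 at day 4, so the arrays overlapped, and 3 rose without day 4 mouse 4. Of 11 measured neutrophil genes 0 passed (median 0.26, level -0.63 to 0.20 at day 2 and -0.24 to 0.44 at day 4). T and NK cell genes gave 0 of 6 and mast cell and eosinophil genes 0 of 3. Among 14 genes of B and plasma cells Jchain, the joining chain of secreted antibodies, rose (0.53 ± 0.15; adjusted p = 0.0691 without day 4 mouse 3), and Sdc1, which plasma cells and epithelium share, fell (-0.24 ± 0.07; adjusted p = 0.0749 without day 4 mouse 4). The shares were 7.14% risen and 7.14% fallen, against 9.44% and 4.09% of all genes tested.

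Genes of the enteric nervous system rose more widely than any other cell type list by share of members. Of 20 measured neuronal genes 14 rose (70%, against 9.44% of all genes tested), 0 fell, and all 20 changes were above 0, with a median of 0.57. Syt1, a calcium sensor of synaptic vesicles, had 274 to 346 at day 2 (median 312) and 434 to 686 at day 4 (median 535) (log2 change 0.77 ± 0.12, adjusted p = 0.00134). Its other probe set changed by 0.10, and the call of Syt1 ended with the mean of probe sets. Scg2, a secretory granule protein, had 649 to 784 at day 2 (median 702) and 967 to 1493 at day 4 (median 1166) (log2 change 0.70 ± 0.13, adjusted p = 0.00347), and the neuropeptide gene Vip had 2375 to 3089.6 at day 2 (median 2715) and 3119.9 to 5299 at day 4 (median 4328) (log2 change 0.65 ± 0.13, adjusted p = 0.00426). None of these overlapped between the days, while the RNA-binding protein gene Elavl4 did (log2 change 0.69 ± 0.17, adjusted p = 0.0117).

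The neuronal list was at -0.18 to 0.14 at day 2 and 0.30 to 0.84 at day 4 relative to the day 2 mean, so that every day 4 array lay above every day 2 array. Its count was 10 without day 4 mouse 3 or day 4 mouse 4, and its median 0.40 without day 4 mice 1, 3 and 4. Enteric glia gave 3 risen of 10 (median 0.36): Scn7a, a sodium channel of glia (log2 change 0.58 ± 0.14, adjusted p = 0.0104), Cdh19 (0.56 ± 0.17; adjusted p = 0.101 without day 4 mouse 4) and Ncam1 (0.49 ± 0.15; 0.108 without day 4 mouse 4). Scn7a had 486 to 634 at day 2 (median 596) and 691 to 1124 at day 4 (median 879), without overlap, and its call ended with its most variable probe set. The share of glial genes that rose was 30%, against 9.44% of all genes tested.

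Collagens and other matrix genes rose. Of 17 collagen genes 11 rose (64.7%, against 9.44% of all genes tested) and 0 fell. All 17 changes were above 0, with a median of 0.49. Col6a3 and Col6a2, chains of the microfibrillar collagen VI, had 2641 to 3268 at day 2 (median 3043) and 3852 to 5235 at day 4 (median 4399) (log2 change 0.54 ± 0.09, adjusted p = 0.00224) and 3431 to 4152 at day 2 (median 3905) and 4552 to 5939.9 at day 4 (median 5672) (log2 change 0.52 ± 0.10, adjusted p = 0.0036). Col5a2, a chain of fibrillar collagen V, changed by 0.60 ± 0.14 and Col12a1, which binds to collagen fibrils, by 0.61 ± 0.15. The days overlapped in none of these 4 genes. The call of Col12a1 ended with the mean of probe sets and with its most variable probe set. The list's level was -0.20 to 0.08 at day 2 and 0.18 to 0.68 at day 4, and 6 rose without day 4 mouse 1 or 4.

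Of 25 basement membrane and elastic matrix genes 15 rose (60%, against 9.44% of all genes tested) and 1 fell (4%, against 4.09%). The median was 0.47. Lox, which cross-links collagen and elastin, had 206 to 420.1 at day 2 (median 350.1) and 424 to 846 at day 4 (median 555) (0.78 ± 0.24; adjusted p = 0.088 without day 4 mouse 3) and the elastin gene Eln had 351 to 747 at day 2 (median 524) and 599 to 1119 at day 4 (median 867) (0.68 ± 0.20; 0.0768 without day 4 mouse 4). The one that fell, named after its value was seen, was Hspg2, the heparan sulfate proteoglycan perlecan (-0.32 ± 0.10; 0.0882 without day 4 mouse 4). Without day 4 mouse 4 the count that rose was 5.

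Fibroblast markers gave 9 risen of 21 (42.9%, against 9.44% of all genes tested), 0 fallen and 21 changes above 0 (median 0.32). Lum, a proteoglycan that organises collagen fibrils, had 2321 to 3725 at day 2 (median 2959) and 3130.2 to 6474 at day 4 (median 5355) (log2 change 0.79 ± 0.15, adjusted p = 0.00402), with day 4 mouse 8 as the low array. Dpt, the matrix protein dermatopontin, had 4521 to 5255 at day 2 (median 4852) and 5689 to 8591 at day 4 (median 6878) (log2 change 0.51 ± 0.11, adjusted p = 0.00838) without overlap. Thy1, a surface protein of fibroblasts, changed by 0.60 ± 0.15 and Col1a2, a chain of collagen I that is in both lists, by 0.49 ± 0.13. The count was 6 without day 4 mouse 3 or 4.

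Vessels followed the same direction. Of 26 endothelial genes 7 rose (26.9%, against 9.44% of all genes tested) and 0 fell. Of the changes 25 were above 0, and the median was 0.48. Mmrn2, a matrix protein of endothelium, had 406 to 515 at day 2 (median 463) and 569 to 1007 at day 4 (median 779) (log2 change 0.75 ± 0.15, adjusted p = 0.00593). Ecscr, an endothelial surface protein, had 394 to 638 at day 2 (median 581) and 723 to 898 at day 4 (median 834) (log2 change 0.59 ± 0.14, adjusted p = 0.00933). The transcription factor gene Sox17 (0.69 ± 0.19; adjusted p = 0.0604 without day 4 mouse 4) and the cadherin gene Cdh5 (0.62 ± 0.21; 0.137 without day 4 mouse 4) passed less firmly. Mmrn2, Ecscr and Sox17 did not overlap between the days and Cdh5 did. With the list at -0.09 to 0.11 at day 2 and 0.18 to 0.74 at day 4, every day 4 array lay above every day 2 array, yet 2 genes rose without day 4 mouse 4.

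Of 8 measured lymphatic endothelial genes 5 rose (62.5%, against 9.44% of all genes tested), with a median of 0.41. Among them were Reln (0.63 ± 0.16) and Pdpn, or podoplanin (0.56 ± 0.13), which had 676 to 857 at day 2 (median 826) and 828 to 1389 at day 4 (median 1245). The count was 2 at the lowest, as without day 2 mouse 7. Of 10 genes of pericytes, the contractile cells around capillaries, 4 rose (40%, against 9.44% of all genes tested), with a median of 0.36. Their receptor gene Pdgfrb had 655 to 848 at day 2 (median 770.4) and 1011 to 1301 at day 4 (median 1076) (log2 change 0.52 ± 0.10, adjusted p = 0.00461) and Mcam had 672 to 908 at day 2 (median 764) and 949.9 to 1333 at day 4 (median 1033) (log2 change 0.47 ± 0.10, adjusted p = 0.00705), both without overlap. The other probe set of Pdgfrb changed by 0.11. The count of pericyte genes was 2 at the lowest, as without day 2 mouse 17.

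Smooth muscle gave 4 risen of 20 (20%, against 9.44% of all genes tested), with a median of 0.24. Hspb6, a small heat shock protein of muscle, had 906 to 1553 at day 2 (median 1211) and 1295 to 2513 at day 4 (median 1821) (0.58 ± 0.15; adjusted p = 0.0513 without day 4 mouse 4), and Casq2, which stores calcium, changed by 0.55 ± 0.18 (0.112 without day 4 mouse 4). Cald1 (0.31 ± 0.06) and Synm (0.47 ± 0.15; 0.102 without day 4 mouse 4) rest on the probe set chosen: with the most variable one they changed by -0.76 and -0.21. Without day 4 mouse 4, 1 gene of the list rose. Skeletal muscle genes, which include contractile genes of another tissue, had a median of 0.62 with 0 of 18 passing, and -0.39 without day 4 mice 1, 3 and 4. Adipocyte genes gave 0 of 8 (median -0.10), mesothelium 2 of 5 risen (Upk3b and Gpm6a, median 0.26) and interstitial cells of Cajal, the pacemakers of gut muscle, 1 of 5 risen (median 0.24), the gap junction gene Gja1 (0.33 ± 0.11; adjusted p = 0.11 without day 4 mouse 1). For mesothelium and these pacemaker cells the shares that rose were 40% and 20%, against 9.44% of all genes tested.

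In several of these lists the median was smaller, and in the same direction, without day 4 mice 1, 3 and 4. It was then 0.29 for collagens, 0.24 for basement membrane and elastic genes, 0.17 for fibroblasts, 0.18 for endothelium, 0.21 for pericytes, 0.17 for smooth muscle and 0.18 for macrophages, and 0 members of these lists passed with 3 arrays at day 4. Some other lists did not follow. Genes of interstitial cells of Cajal were at -0.13, 0.29 and 0.11 on day 4 mice 1, 3 and 4, and at 0.37, 0.17 and 0.11 on mice 6, 7 and 8. Mesothelial genes were at 0.09, 0.47 and 0.39 on the former and at -0.09, 0.32 and 0.56 on the latter. With squamous and skeletal muscle levels as covariates 14 neuronal, 9 collagen, 12 basement membrane and elastic, 8 fibroblast and 4 endothelial genes rose.

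**Figure D4:**
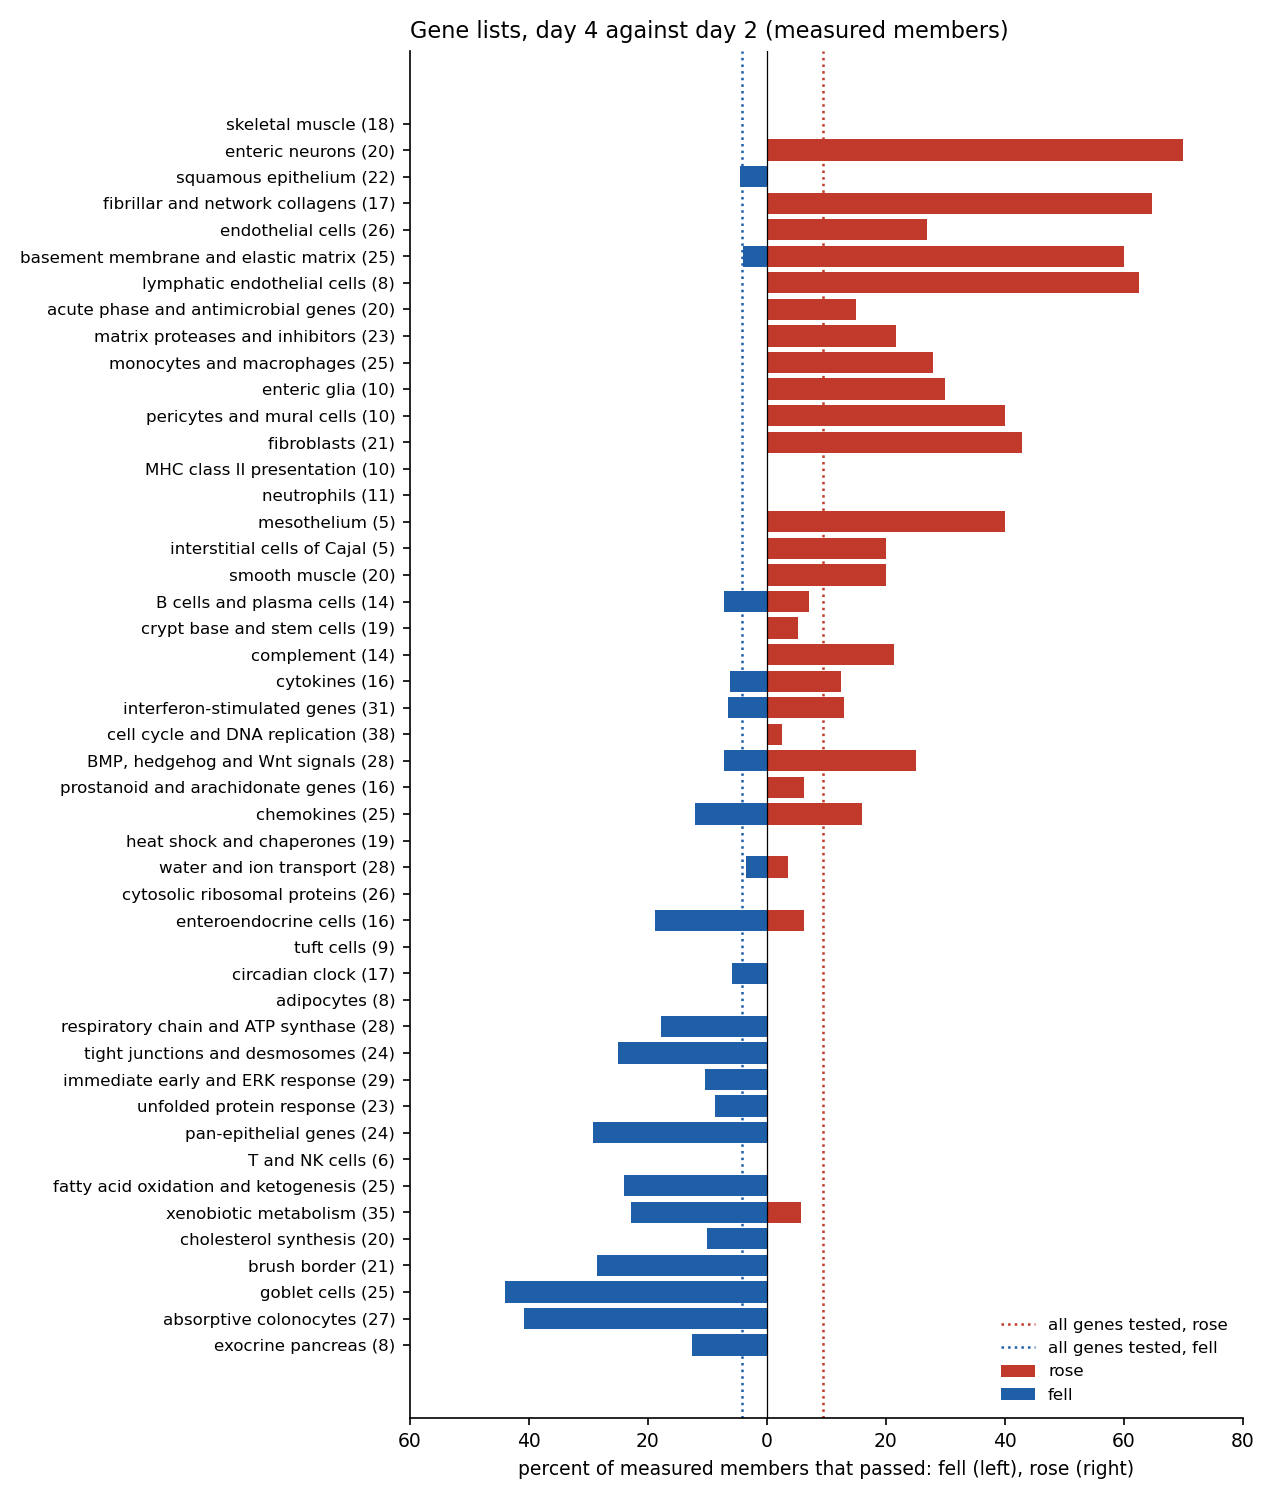
Share of the measured members of each gene list (number in brackets, lists with at least 5 measured) that rose (red, right) or fell (blue, left) from day 2 to day 4, in order of the list's median change; dotted lines are the shares over all genes tested, 9.44% and 4.09%. Neuronal, collagen, lymphatic and basement membrane lists reach furthest to the right, and goblet cell and colonocyte lists furthest to the left.

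Epithelial genes moved down. The largest decreases without overlap between the days were Cnnm4 (-1.001), a magnesium transporter of epithelium, Mogat2 (-0.97), an enzyme of triglyceride synthesis in gut epithelium, Ces2a (-0.89) and Ces2b (-0.73), carboxylesterases, Nr1d1 (-0.87), a clock repressor, 5430427M07Rik (-0.84), Lgals2 (-0.84), a galectin, Frk (-0.83), an epithelial tyrosine kinase, Acot4 (-0.81), a peroxisomal thioesterase, Qsox1 (-0.75), a sulfhydryl oxidase of the secretory pathway, Oasl1 (-0.75), Itgb6 (-0.74), an epithelial integrin chain, Ptprr (-0.71), a phosphatase of MAP kinases, Bace2 (-0.71), an aspartyl protease, and Tns4 (-0.69), a focal adhesion protein. Calls that ended without single arrays were those of Acot4 (adjusted p = 0.126 without day 4 mouse 4, the highest of 9 such arrays), Itgb6 (0.0755 without day 4 mouse 4, of 3) and Ptprr (0.0554 without day 4 mouse 4). Of the 2 probe sets of Cnnm4 the other had a change of 0.28. Among the 126 genes named by rule, 11 had a probe set of the opposite sign, Gbp7, Lss, Cdt1 and Atp5a1 among them. The genes named after their values were seen were not checked for this.

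Qsox1 had the lowest p of the genes named, with 1744 to 2406 at day 2 (median 2049) and 1049.9 to 1420.4 at day 4 (median 1207) (log2 change -0.75 ± 0.09, adjusted p = 0.000334). Cnnm4 had 3110.2 to 5275 at day 2 (median 4734) and 1406 to 3015 at day 4 (median 2206) (log2 change -1.001 ± 0.17, adjusted p = 0.00149) and Frk had 1509.9 to 1890.5 at day 2 (median 1862) and 666 to 1192 at day 4 (median 1036) (log2 change -0.83 ± 0.14, adjusted p = 0.00148). Bace2 had 1728 to 2303 at day 2 (median 1856) and 934 to 1519.5 at day 4 (median 1188) (log2 change -0.71 ± 0.13, adjusted p = 0.00283), and its 5 probe sets all moved down. In these 4 genes the day 4 arrays lay in a band wholly below day 2, and no 1 array decided the call. The call of Bace2 ended with its most variable probe set, and that of Cnnm4 with the mean of probe sets.

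Of 27 measured genes of absorptive colonocytes 11 fell (40.7%, against 4.09% of all genes tested), 0 rose and 27 changes were below 0, with a median of -0.35. Fabp2, a fatty acid binding protein of enterocytes, had 9506 to 13481 at day 2 (median 11732) and 6761 to 9255 at day 4 (median 7197) (log2 change -0.60 ± 0.12, adjusted p = 0.00457). Tmigd1, an adhesion protein of the surface epithelium, had 3162 to 7190.1 at day 2 (median 5669) and 1734 to 4198 at day 4 (median 2575) (log2 change -0.95 ± 0.25, adjusted p = 0.0159; 0.0511 without day 4 mouse 4) and Emp1, a membrane protein, 8138 to 10648 at day 2 (median 10180) and 4563 to 9973 at day 4 (median 5871) (log2 change -0.58 ± 0.16, adjusted p = 0.0224; 0.0684 without day 4 mouse 4, the highest of 4 such arrays). Fabp2 did not overlap between the days. Tmigd1 and Emp1 did. The list's level was -0.11 to 0.10 at day 2 and -0.95 to 0.02 at day 4, 3 members fell without day 4 mouse 4, and the median was -0.10 without day 4 mice 1, 3 and 4.

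Goblet cell genes gave 11 fallen of 25 (44%, against 4.09% of all genes tested), 0 risen and a median of -0.33. B3gnt6, a glycosyltransferase that builds mucin sugars, had 1013 to 1929 at day 2 (median 1117) and 428 to 1266 at day 4 (median 767) (log2 change -0.71 ± 0.18, adjusted p = 0.0159), the serine protease gene Tpsg1 had 510.4 to 723 at day 2 (median 653) and 271 to 586 at day 4 (median 414) (log2 change -0.69 ± 0.17, adjusted p = 0.0141) and the transporter gene Slc12a8 had 1584 to 2504 at day 2 (median 1789) and 798 to 1684 at day 4 (median 1232) (log2 change -0.62 ± 0.14, adjusted p = 0.00958). All 3 overlapped between the days and kept their calls whichever array was left out. On every day 4 array the list lay below every day 2 array (-0.03 to 0.07 at day 2 and -0.66 to -0.09 at day 4). The count was 5 without day 4 mouse 1, and the median -0.13 without day 4 mice 1, 3 and 4.

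Hormone-producing cells gave a mixed picture. Of 16 enteroendocrine genes 3 fell (18.8%, against 4.09% of all genes tested) and 1 rose (6.25%, against 9.44%), with a median of -0.03. Sct, which encodes secretin, had 536 to 1483 at day 2 (median 1190) and 373 to 970.3 at day 4 (median 500.4) (log2 change -0.94 ± 0.28, adjusted p = 0.0314; 0.0874 without day 4 mouse 4). Tph1, the enzyme of serotonin synthesis in enterochromaffin cells, had 505 to 981 at day 2 (median 879.8) and 336 to 547 at day 4 (median 468) (log2 change -0.84 ± 0.19, adjusted p = 0.00792). The granule protein gene Chgb fell (-0.36 ± 0.11; 0.102 without day 4 mouse 4) and the prohormone-processing gene Cpe, which neurons also use, rose (0.32 ± 0.11; 0.135 without day 4 mouse 4). Of these calls the one of Tph1 alone held whichever array was left out. Tuft cell genes gave 0 of 9.

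Genes shared by all epithelial cells fell in 7 of 24 cases (29.2%, against 4.09% of all genes tested) with 0 risen. All 24 changes were below 0, at a small median of -0.16. The tight junction genes Cldn3 and Cldn7 had 11174 to 14020 at day 2 (median 11883) and 7878 to 11008 at day 4 (median 9389) (log2 change -0.40 ± 0.09, adjusted p = 0.00829) and 14737 to 17148 at day 2 (median 15529) and 11835 to 14461 at day 4 (median 12823) (log2 change -0.29 ± 0.06, adjusted p = 0.00629), without overlap, and Cldn4 changed by -0.61 ± 0.19 (0.11 without day 4 mouse 4). The list of tight junctions and desmosomes, which shares these 3 claudins, gave 6 fallen of 24 (25%, against the same 4.09%). Its median was -0.11, and 0.01 without day 4 mice 1, 3 and 4. Both counts were 2 at the lowest, as without day 2 mouse 7.

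Genes of the brush border and of mitochondrial metabolism also moved down, and from which cells of the whole colon this came was not tested. Of 21 brush border genes 6 fell (28.6%, against 4.09% of all genes tested), with a median of -0.33. Among them was Myo1d, an unconventional myosin, with 5459.6 to 6785 at day 2 (median 5654) and 3319.6 to 5288 at day 4 (median 4494) (log2 change -0.41 ± 0.10, adjusted p = 0.0113) and no overlap. The call of Myo1d ended with the mean of probe sets and with its most variable probe set. The brush border count was 1 without day 2 mouse 17, for example. Fatty acid oxidation gave 6 fallen of 25 (24%, against 4.09% of all genes tested), with a median of -0.20. Etfb, an electron carrier of mitochondrial oxidation, had 4916 to 5549 at day 2 (median 4993) and 3974 to 4434 at day 4 (median 4123) (log2 change -0.29 ± 0.06, adjusted p = 0.004), and Pparg, a receptor that controls lipid genes, changed by -0.60 ± 0.18 (0.0845 without day 4 mouse 1). The lowest count there was 2, as without day 2 mouse 7.

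All 28 genes of the respiratory chain had changes below 0, but small ones (median -0.11), and 5 fell: Uqcrfs1 of complex III (log2 change -0.37 ± 0.07, adjusted p = 0.00461), Sdhc of complex II (-0.28 ± 0.07), cytochrome c, Cycs (-0.19 ± 0.06; 0.0888 without day 4 mouse 4), and the ATP synthase genes Atp5a1 (-0.16 ± 0.05; 0.0603 without day 4 mouse 1) and, named after its value was seen, Atp5b (-0.15 ± 0.04; 0.0625 without day 2 mouse 17). Uqcrfs1 had 8229.9 to 10512 at day 2 (median 9526) and 6663 to 8077 at day 4 (median 7192), without overlap. The share that fell was 17.9%, against 4.09% of all genes tested, and the count was 2 without day 4 mouse 3.

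Xenobiotic metabolism gave 8 fallen of 35 (22.9%, against 4.09% of all genes tested) and 2 risen (5.71%, against 9.44%), with a median of -0.23. The cytochrome P450 genes were among the steepest decreases of all: Cyp3a44 had 29.5 to 152 at day 2 (median 129) and 2.05 to 39.9 at day 4 (median 16.1) (log2 change -1.92 ± 0.32, adjusted p = 0.00148), Cyp3a25 61.3 to 391 at day 2 (median 327) and 35.7 to 136 at day 4 (median 87.1) (log2 change -1.50 ± 0.45, adjusted p = 0.0304; 0.0852 without day 4 mouse 4), Cyp4b1 573 to 1400.2 at day 2 (median 1288) and 402 to 855 at day 4 (median 559) (log2 change -0.97 ± 0.22, adjusted p = 0.00789) and Cyp2c65 2609.6 to 7543 at day 2 (median 6269) and 2154 to 5192 at day 4 (median 2737) (log2 change -0.88 ± 0.27, adjusted p = 0.0355; 0.0948 without day 4 mouse 4). The days overlapped in all 4 genes. Day 2 mouse 6, the array with pancreatic RNA, was the lowest of its day in each, at 29.5, 61.3, 573 and 2610, and the other day 2 arrays lay above every day 4 array. Near-identical P450 genes of 1 family can share probes. Ces2a, an esterase of the same list, had 7468 to 9721 at day 2 (median 8432) and 3043 to 6568 at day 4 (median 4915) (log2 change -0.89 ± 0.22, adjusted p = 0.0124) without overlap. The 2 that rose, named after their values were seen, were Gstt1 (0.25 ± 0.07; 0.0801 without day 4 mouse 4) and Ephx1 (0.38 ± 0.11; 0.0943 without day 4 mouse 4). The count that fell was 4 without day 4 mouse 1, for example.

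Fewer calls were made in some other lists. Cholesterol synthesis gave 2 fallen of 20 (10%, against 4.09% of all genes tested), with a median of -0.24. These were Stard4, a cholesterol carrier (log2 change -0.55 ± 0.14, adjusted p = 0.0163), and Lss, lanosterol synthase (-0.61 ± 0.19; 0.102 without day 4 mouse 4). Stard4 had 3615 to 4274 at day 2 (median 3796) and 2167 to 3045 at day 4 (median 2635), without overlap. Of 28 genes of water and ion transport 1 fell, the sodium-proton exchanger gene Slc9a2 (log2 change -0.48 ± 0.13, adjusted p = 0.0183; 0.0513 without day 4 mouse 4), and 1 rose, the water channel gene Aqp4 (0.50 ± 0.17; 0.117 without day 4 mouse 1), which changed by -0.24 with its most variable probe set. Their median was 0.01, and 3.57% fell and 3.57% rose, against 4.09% and 9.44% of all genes tested. Cytosolic ribosomal proteins (0 of 26) and heat shock genes (0 of 19) gave no calls. The unfolded protein response gave 2 fallen of 23 (8.7%, against 4.09% of all genes tested), with a median of -0.12. These were the chaperone gene Calr (-0.19 ± 0.06; 0.122 without day 4 mouse 4) and the asparagine synthetase gene Asns (-0.36 ± 0.10; 0.068 without day 4 mouse 4).

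Crypt and division genes did not follow the surface epithelium. Of 19 genes of the crypt base and stem cells 1 rose, Rgmb, a BMP co-receptor (0.30 ± 0.08; 0.0562 without day 4 mouse 4), which changed by -0.32 with its most variable probe set, and the median was 0.23. Of 38 genes of the cell cycle and DNA replication 1 rose, the licensing factor gene Cdt1 (0.29 ± 0.09; adjusted p = 0.039; 0.101 without day 4 mouse 4), with a median of 0.17. With the Actb ratio as a covariate these medians were -0.03 and -0.08. The shares that rose in the 2 lists, 5.26% and 2.63%, lay below the 9.44% of all genes tested.

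Some genes of signalling between stroma and crypt moved. Of 28 genes of BMP, hedgehog and Wnt signalling 7 rose (25%, against 9.44% of all genes tested) and 2 fell (7.14%, against 4.09%). Rspo3, a stromal protein that strengthens Wnt signals to crypt stem cells, had 369 to 501 at day 2 (median 378) and 546 to 824 at day 4 (median 653) (log2 change 0.67 ± 0.16, adjusted p = 0.00935). The secreted Wnt inhibitors Sfrp1 and Sfrp2 had 1061 to 1335 at day 2 (median 1205) and 1617 to 2016 at day 4 (median 1833) (log2 change 0.59 ± 0.14, adjusted p = 0.00907) and 196 to 335 at day 2 (median 254) and 312 to 609 at day 4 (median 473) (log2 change 0.77 ± 0.21, adjusted p = 0.0188; 0.0574 without day 4 mouse 4). Rspo3 and Sfrp1 did not overlap between the days, although 2 of the 5 probe sets of Sfrp1 moved down. Of the 2 that fell, Ihh, the hedgehog ligand made by colonocytes, had 1493 to 2252 at day 2 (median 1693) and 944 to 1440.3 at day 4 (median 1019.6) (log2 change -0.63 ± 0.17, adjusted p = 0.019; 0.0506 without day 2 mouse 17), and Smad7, an inhibitor of TGF-beta signalling named after its value was seen, changed by -0.46 ± 0.11. Without day 4 mouse 4 the count that rose was 4.

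Immediate early genes and targets of the MAP kinase ERK gave 3 fallen of 29 (10.3%, against 4.09% of all genes tested) and 0 risen (median -0.12). Dusp5, a nuclear phosphatase that switches off ERK, had 92 to 259.8 at day 2 (median 172) and 8.81 to 155 at day 4 (median 63.7) (log2 change -1.27 ± 0.37, adjusted p = 0.0272; 0.0681 without day 4 mouse 1). The AP-1 genes Jun and Junb had 1847 to 3148 at day 2 (median 2255) and 1541 to 1891 at day 4 (median 1766) (log2 change -0.44 ± 0.11, adjusted p = 0.0159) and 727 to 1591 at day 2 (median 1112) and 546 to 827 at day 4 (median 686) (log2 change -0.73 ± 0.23, adjusted p = 0.0394; 0.0967 without day 4 mouse 4). All 3 overlapped. The count was 1 without day 2 mouse 7, for example. The squamous list held 1 gene that fell, Sfn, which colon epithelium also expresses (log2 change -0.76 ± 0.18, adjusted p = 0.0108).

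Of 17 clock genes 1 passed, as a fall (5.88%, against 4.09% of all genes tested). Nr1d1, which encodes the repressor REV-ERB-alpha, fell without overlap from between 1035 and 1722 at day 2 (median 1385) to between 556 and 983 at day 4 (median 728) (log2 change -0.87 ± 0.19, adjusted p = 0.00785). The list's median was -0.05 and its level -0.08 to 0.06 at day 2 and -0.39 to 0.18 at day 4, the day 4 arrays lying on both sides of day 2. Day 4 mice 1, 3 and 4 were at -0.32, -0.39 and -0.39, and mice 6, 7 and 8 at 0.14, 0.18 and 0.16. With the level of Dbp as a covariate, an alternative added after the data were seen, 775 genes rose and 302 fell.

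The steps before and after share arrays with this one: day 2 with the step from day 0, and day 4, with the opposite sign, with the step to day 6. Between day 0 and day 2, 2 genes rose (0.016%) and 8 fell (0.0642%), and between day 4 and day 6, 1133 rose (9.09%) and 1712 fell (13.7%). The genes that rose in this step had median changes of -0.01, 0.43 and -0.13 in the 3 steps, and those that fell 0.08, -0.36 and 0.10. After day 4, 110 of the 1176 genes that had risen rose again and 286 fell, and of the 510 that had fallen 29 fell again and 108 rose. These genes were chosen on the day 4 arrays, which enter the step after with the opposite sign, so the counts and medians are a description and no measure of a turn.

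A test of the difference between this step and the one before found 1 gene higher (0.00802%) and 2 lower (0.016%). Itgb7, a chain of the gut-homing integrin of lymphocytes, went from a median of 91.4 at day 0 to 14.96 at day 2 and 82.9 at day 4, a difference between the steps of 2.94 ± 0.53 (adjusted p = 0.0436). It rose in this step (log2 change 1.47 ± 0.30, adjusted p = 0.00523). Qsox1 (-0.94 ± 0.16, adjusted p = 0.0388) and the keratin gene Krt7 (-1.02 ± 0.15, adjusted p = 0.0115) went the other way. Krt7 had 3813 to 4447 at day 2 (median 4151) and 2556 to 3572 at day 4 (median 2910.03) (log2 change -0.45 ± 0.09, adjusted p = 0.00433) after a median of 2772 at day 0. The count of 3 such genes fell to 0 when mouse 17 of day 2 was left out, and to 1 for its mouse 1 or for mice 3 or 4 of day 4. It was 17 when mouse 52 of day 2 was left out, and 7, 18, 45 and 26 for mice 1, 6, 7 and 8 of day 4.

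The step after differed from this one in 1702 genes: 1201 were lower in it (9.64%) and 501 higher (4.02%). Leaving out mouse 4 of day 4 gave 572 and 196, its mouse 3 769 and 279, and its mouse 1 866 and 328. The P450 gene Cyp3a44 turned back, with medians of 129 at day 2, 16.1 at day 4 and 89.2 at day 6 (difference of the steps 3.74 ± 0.55, adjusted p = 0.00126). Gm6958, with medians of 947 at day 0, 179 at day 2, 634 at day 4 and 352 at day 6, turned the other way (-3.05 ± 0.88, adjusted p = 0.0247). Qsox1 stayed low (median 1193 at day 6; difference of the steps 0.80 ± 0.16, adjusted p = 0.00366).

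The gene groups had these values in the step after, with no test between groups. Of the 20 neuronal genes, 11 had a lower change in the step after than in this one, and the median of the step after was -0.28. Smooth muscle gave 13 fallen of 20 in the step after (median -0.37), with 10 differing between the steps. Of the 17 collagen genes 7 rose in the step after (median 0.21), Col5a2 among them, while Col6a3, Col6a2, Col12a1 and Col1a2 did not pass there. Macrophage genes rose in 21 of 25 in the step after (median 0.83) and neutrophil genes in 10 of 11 (median 1.90), and the difference between the steps passed in 4 and 7 of them. Colonocyte genes, after -0.35, had 8 risen and 5 fallen (median 0.10). Genes of water and ion transport, near 0 in this step, fell in 17 of 28 (median -0.43).

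**Figure D5:**
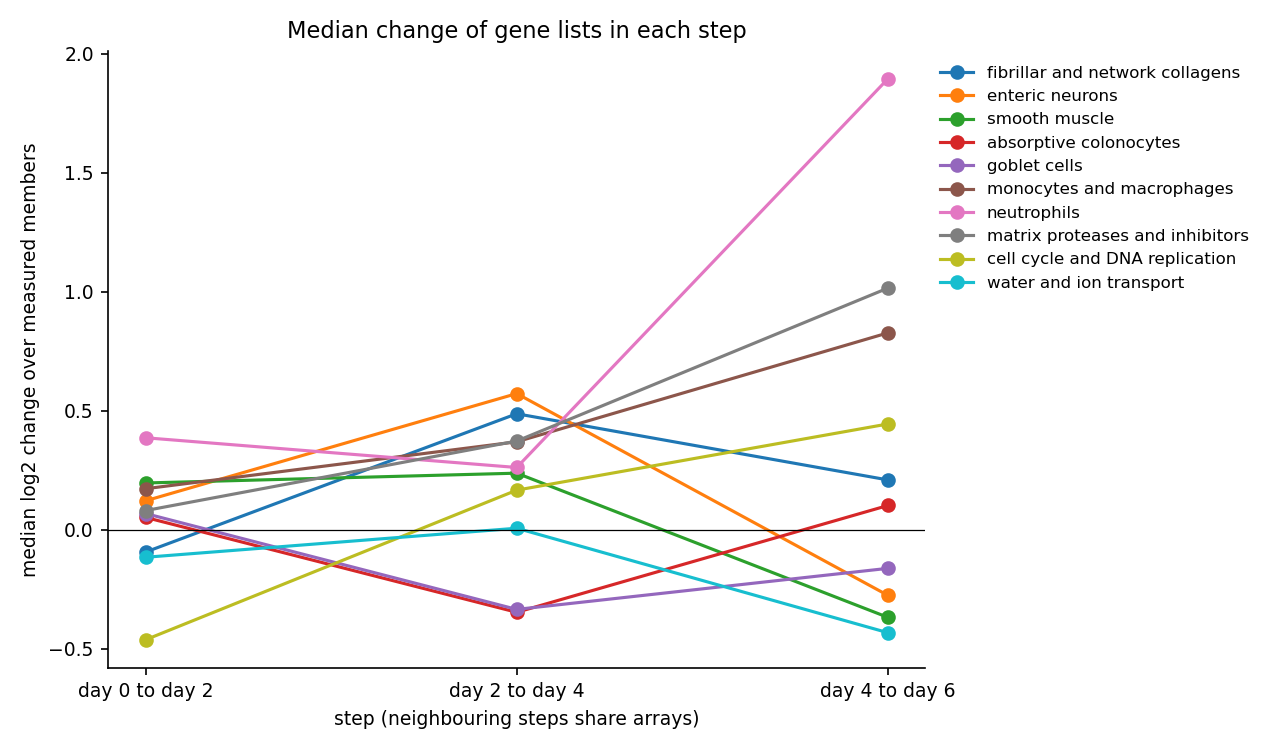
Median log2 change over the measured members of 10 gene lists in the 3 steps of the time course, day 0 to 2, day 2 to 4 and day 4 to 6; neighbouring steps share arrays. Collagen and neuronal genes have their highest median in the middle step (0.49 and 0.57) and colonocyte and goblet cell genes their lowest (-0.35 and -0.33), while neutrophil, macrophage and protease genes have their highest in the last step.

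Day 6 against day 0 shares no array with this comparison. Of the 1176 genes that rose from day 2 to day 4, 79.6% were higher at day 6 than at day 0, against 52.8% of all genes tested, and 47.2% passed as higher, against 18.1%. Of the 510 that fell, 77.3% were lower at day 6 than at day 0, against 47.2% of all genes, and 41.4% passed as lower, against 14.3%. The median difference was 0.27 for the genes that rose and -0.18 for those that fell. Genes are not independent of each other, so these shares describe the 2 comparisons. By group, the medians of day 6 against day 0 were 0.48 for collagens, 0.71 for endothelium, 0.45 for neurons, -0.02 for smooth muscle, -0.18 for colonocytes and -0.45 for goblet cells.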

How the data were processed

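Total RNA of mouse colon was measured on 23 arrays, 1 per animal, of which 12 enter the comparison of day 4 with day 2. The authors deposited intensity values, which per the submitters' processing notes are MAS5 signals (no version given) and are linear. Each array's mean after trimming 2% at each end was 500.003, and array medians ran from 97.3 to 121. Scaling to a common mean sets every change relative to the whole array. The number of arrays limits the precision.

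From the deposited intensities, log2(signal + 16) was computed. Probe sets above their array's median on at least 5 arrays were kept (24627 of 45101, of which 21639 carry 1 gene symbol in GEO's platform annotation of 2016), and the brightest stood for each of 12463 genes. Of all probe sets 34945 had 1 symbol, 932 several and 9160 none. One limma model (version 3.58.1, R 4.3.3) held all 4 days, with a trended variance and 19 residual degrees of freedom, and p-values were two-sided with Benjamini-Hochberg adjustment. Quality measures were compared by exact permutation tests. The model was tested on simulated data. Where nothing says more, p-values measure the spread between these animals.

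Named genes were the 15 largest changes each way without overlap, up to 4 called members of each list, leading markers of neighbouring tissue, and up to 5 genes each way that differed between steps. A further 10 called genes, and the markers that set single arrays apart, were picked with their values known and are marked in the text. The members and the 49 gene lists (1029 of 1121 entries matched) were chosen with earlier results of these data known. Promoters came from RefSeq, GRCm38.p6. Alternatives covered pseudocount, filter, scaling, probe set choice, model, covariates and arrays left out. Mouse numbers shared by the days did not pair the animals by the check made.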

Additional observations from a re-analysis of the deposited data

Results flagged for a closer look

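Single arrays stood apart from the other 5 of their day in 29 of 368 groups of values examined (7.88%); chance gives such a gap in about 5% of groups. By Dixon's criterion for 6 samples, 21 of these were genes and 8 gene lists, and 7 fell on day 2 mouse 6, 4 on day 2 mouse 8 and 5 on day 4 mouse 8.

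On day 2 mouse 6 the pancreatic list was high at 4.97 on the log2 scale relative to the day 2 mean, and the T and NK cell list low at -0.74. The same array was lowest in the P450 genes Cyp3a44 (29.5), Cyp3a25 (61.3), Cyp4b1 (573) and Cyp2c65 (2610) and in Nmu (78.4). Day 2 mouse 8 was low in the squamous list (-3.07) and the mast cell and eosinophil list (-0.91), and high in Cxcl12 (3293) and Lst1 (160.3). Day 4 mouse 8 was low in the squamous list (-2.82), skeletal muscle (-3.36), neutrophils (-0.24), Pdpn (828) and Lum (3130.2).

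The other values at day 2 were low ones of Il6 (1.3) and Gpm6a (33.9) on mouse 52, of Afap1l2 (109) and the collagen list (-0.20) on mouse 7, and of Scn7a (486) and Sox17 (83.7) on mouse 1, and a high one of Itgb7 (60.9) on mouse 7. At day 4 Gbp3 was high on mouse 3 (531), while Mogat2 was low on mouse 6 (42.9), Itgb6 (69.1) and Zg16 (16180.4) on mouse 4, and Col6a2 (4552) and Mmp23 (256) on mouse 7.

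Changes also differed between neighbouring steps, which share arrays. Against the step before, the difference was 2.94 for Itgb7, -0.94 for Qsox1 and -1.02 for Krt7. The step after differed from this one by 0.80 for Qsox1, 3.74 for Cyp3a44 and -3.05 for Gm6958, and in 501 genes higher and 1201 lower.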

How the results depend on the processing

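Of 136 named calls 72 held whichever 1 array was left out. The counts of genes that rose and fell were 722 and 308 with median centring, 41 and 12 with the hybridisation controls as a covariate, 8 and 21 with the Actb ratio, 775 and 302 with the level of Dbp, and 0 and 1 without day 4 mice 1, 3 and 4; the most variable probe set gave 939 fallen. Leaving out 1 array gave 526 to 1247 risen and 188 to 607 fallen. The causes were not tested.

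With the mouse number as a replicate block, 63 genes rose and 24 fell, 0 differed from the step before, and 679 were lower and 275 higher in the step after. Correlations of same-numbered arrays were 0.042, 0.223, 0.045 and 0.703 for mice 1, 6, 7 and 8, and other pairs lay between -0.404 and 0.25. Mice 6 and 8 correlated best with their own number and mice 1 and 7 did not; the correlation was not over 0.1 for every number, so the numbers were not taken as pairs.

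The 3 genes differing from the step before became 1 with the mean of probe sets, 7 with the most variable probe set, 5 with no variance trend, 166 with array weights, 0 with the hybridisation controls, 10 with the Actb ratio, 5 with the squamous and muscle covariates, 0 without day 4 mice 1, 3 and 4, 0 with Dbp, and 0 to 45 without 1 array. Genes lower in the step after numbered 766 with the most variable probe set, 2 with the Actb ratio, 765 with squamous and muscle covariates, 13 without day 4 mice 1, 3 and 4, and 572 to 1225 without 1 array. Those higher numbered 269 with median centring, 2, 281 and 11 in the last 3 of these settings, and 196 to 541 without 1 array. Genes wholly below day 2 numbered 207 with the mean of probe sets, 268 with the most variable one, and 145 to 250 without 1 array, which can only keep or raise this count. The 18S control differed by 0.378 to 0.686 without 1 array.

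Medians that turned included, with the hybridisation controls, those of interstitial cells of Cajal (-0.19), neutrophils (-0.10), mast cells and eosinophils (-0.51), water and ion transport (-0.18) and cytokines (-0.0034), with the Actb ratio those of mesothelium (-0.0553), crypt base and stem cells (-0.0335) and cell cycle and DNA replication (-0.0783), without day 4 mice 1, 3 and 4 those of skeletal muscle (-0.39), squamous epithelium (-0.20), B cells and plasma cells (-0.10), tuft cells (0.14), circadian clock (0.16), mast cells and eosinophils (-0.13), and, near 0, tight junctions and desmosomes (0.0058) and heat shock and chaperones (-0.027), and with the most variable probe set that of water and ion transport (-0.12). With that probe set Atp5a1 (0.13), Rgmb (-0.32), Aqp4 (-0.24), Cald1 (-0.76) and Synm (-0.21) turned too, as did Cald1 with the mean of probe sets (-0.18) and Synm with a pseudocount of 64 (-0.21). Dim signals limit what can be read for genes such as Il6 and Cyp3a44.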
